A study of Homo sapiens with 12 samples.

Results

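The 32 genes described here encode enzymes that make, recycle or remove nucleotides, and they were followed in OCI-AML3, a human cell line grown from acute myeloid leukaemia, after 24 h of drug treatment. They were chosen by name from a table of read counts for 54628 gene symbols: 10 of de novo purine synthesis, 4 of PRPP supply and purine salvage, 5 of pyrimidine synthesis, 6 nucleotide and nucleoside kinases and 7 that set the deoxynucleotide pools. All 32 had a row, and 31 passed the filter on low counts, NME2 being the exception. The libraries fall into 4 groups of 3: the combination of both drugs (Comb), an ERK inhibitor given in the labels as compound 27 (ERKi), venetoclax (ABT199), which blocks the survival protein BCL2, and the solvent DMSO. The cells are 1 line, no group differs in genotype, drug doses were found nowhere in the labels, and nothing states that the replicates were separate cultures, so p-values measure the spread between these libraries, which may be technical.

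Purine rings are built on phosphoribosyl pyrophosphate (PRPP) through a chain of enzymes that ends in IMP, from which AMP and GMP are made, while the pyrimidine ring is built first and then joined to PRPP to give UMP and, from it, CTP. Salvage enzymes return free bases and nucleosides to the pool at lower cost. Ribonucleotide reductase, thymidylate synthase and their partners turn ribonucleotides into the precursors of DNA, and their genes are known to be used most in S phase. Antimetabolites that act on this network, cytarabine among them, are long-standing drugs for acute myeloid leukaemia.

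The libraries held 19199296 to 21275065 counts, and their total over the 32 genes was 0.378 to 0.389% of all counts in Comb, 0.354 to 0.36% in ERKi, 0.534 to 0.542% in ABT199 and 0.535 to 0.538% in DMSO libraries. One library, DMSO replicate 1, differed more from its group than any other: its counts gave a chi-square over degrees of freedom of 16.3 and 15.4 against DMSO replicates 2 and 3, where all other replicate pairs ran from 2.26 to 5.11. The ERK target gene DUSP6 averaged 1.27 ± 0.32 CPM in Comb, 2.24 ± 0.40 in ERKi, 15.8 ± 1.88 in ABT199 and 14.7 ± 0.64 in DMSO libraries (SD, n = 3 each). The other genes set as a check on the inhibitor, ETV4 and SPRY4, were lowest in ERKi libraries instead. ETV4 averaged 0.856 CPM in Comb, 0.466 in ERKi, 17.7 in ABT199 and 16.7 in DMSO libraries. SPRY4 averaged 24.7, 21.3, 43.6 and 45.9 CPM in the same order. CPM is the count per 1e+06 counts of the scaled library. Of the myeloid markers, PTPRC (CD45) and CD33 were well expressed, while MPO averaged 3.11 CPM or less and ITGAM 6.53 CPM or less in every group. The epithelial marker EPCAM was at 0 in all libraries, and 4 epithelial markers together reached at most 0.554 CPM. Of the endothelial markers, PECAM1 averaged 92.7 CPM in Comb, 75.1 in ERKi, 13.5 in ABT199 and 11.8 in DMSO libraries. CDH5 was at 0 in all libraries and VWF averaged 0.063 CPM or less. The summed level of 5 fibroblast markers was 1.15 to 1.57 CPM in Comb, 9.33 to 24.0 in ERKi, 12.3 to 23.6 in ABT199 and 6.04 to 33.9 CPM in DMSO libraries, and its part in the results was not tested. Fewer cells using a gene and less RNA per cell cannot be told apart in these bulk libraries.

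Sequences upstream of 3 genes are shown because they carry the contrasts below: RRM2 had the largest fall, SAMHD1 was the gene that rose, and PPAT has transcripts of PAICS, the purine gene that fell most, starting in its window. They are RefSeq windows (GRCh38.p14) of 250 bases before to 50 after the start on which each window is built, read along the gene. That start is the outermost RefSeq start of the gene in 25 of 30 member windows, PPAT and SAMHD1 among them. The RRM2 window is built on base 10122739, which lies 171 bases inside the gene as RefSeq bounds it (from 10122568), and those of CTPS2, GART, GMPS and PFAS are also built on a start inside the gene. PPAT lies on the minus strand, window chr4:56435566-56435865, RRM2 on the plus strand, window chr2:10122489-10122788, and SAMHD1 on the minus strand, window chr20:36951659-36951958. Capitals mark the E-box CACGTG and the CCAAT box, searched on both strands.
PPAT: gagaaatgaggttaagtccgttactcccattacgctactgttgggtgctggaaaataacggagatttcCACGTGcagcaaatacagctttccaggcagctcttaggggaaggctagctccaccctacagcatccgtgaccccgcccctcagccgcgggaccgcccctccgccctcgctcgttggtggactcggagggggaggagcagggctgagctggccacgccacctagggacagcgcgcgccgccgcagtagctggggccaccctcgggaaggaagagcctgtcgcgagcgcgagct
RRM2: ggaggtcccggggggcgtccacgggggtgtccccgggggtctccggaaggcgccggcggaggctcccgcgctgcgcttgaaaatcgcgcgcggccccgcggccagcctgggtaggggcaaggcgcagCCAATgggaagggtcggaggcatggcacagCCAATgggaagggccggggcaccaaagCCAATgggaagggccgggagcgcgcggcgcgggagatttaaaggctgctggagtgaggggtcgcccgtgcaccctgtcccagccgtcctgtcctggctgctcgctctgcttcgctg
SAMHD1: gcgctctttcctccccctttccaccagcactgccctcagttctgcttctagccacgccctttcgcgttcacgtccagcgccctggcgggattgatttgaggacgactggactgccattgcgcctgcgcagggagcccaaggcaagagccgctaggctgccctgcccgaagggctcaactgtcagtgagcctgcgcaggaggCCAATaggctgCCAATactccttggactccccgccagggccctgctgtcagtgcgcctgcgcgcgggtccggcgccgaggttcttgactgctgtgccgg
In GENCODE 29, of the same build, 1 of 5 PPAT transcripts starts in the PPAT window, at 56435615, and 3 of 8 PAICS transcripts start there on the opposite strand, between 56435741 and 56435752, so some transcripts of both genes are read outward from this stretch. The RefSeq window of PAICS itself is another one, chr4:56410257-56410556, and that one stands for PAICS in the motif counts below. The RRM2 window held 3 CCAAT boxes, starting 123, 93 and 66 bases before base 10122739 and thus inside the outermost RefSeq bounds of the gene. The SAMHD1 window held 2, starting 49 and 38 bases before its start. CCAAT was present in 10 of 30 member windows (30 of the 32 genes had one) and in 35.7% of 27305 windows of all genes, the E-box in 5 of 30 (ATIC, DCK, DHODH, NME1 and PPAT) and 7.43%, and the E2F motifs TTTGGCGC or TTTCGCGC in 1 of 30 (DCK) and 1.18%. Over the 11022 windows of genes tested here the shares were 36.45% for CCAAT, 10.1% for the E-box and 2.1% for the E2F motifs. The gene that rose and the gene that fell most both carried CCAAT. A match here is a description of letters, not of a bound factor.

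ERKi against DMSO asked what blocking ERK alone does to these genes, and nearly all of them fell. Of the 31 genes tested, 30 were lower and 1, SAMHD1, was higher with ERKi (edgeR quasi-likelihood test, adjusted p under 0.05 over all 15173 genes tested). Among all genes 69.7% were called, 35.2% lower and 34.5% higher. The median log2 fold change of the 31 was -0.90, where that of all genes was 0.01. In 29 of the 30 that fell the ERKi libraries lay below all DMSO libraries, CMPK1 being the exception, and 35.6% of all genes tested lay below in the same way.

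**Figure D1:**
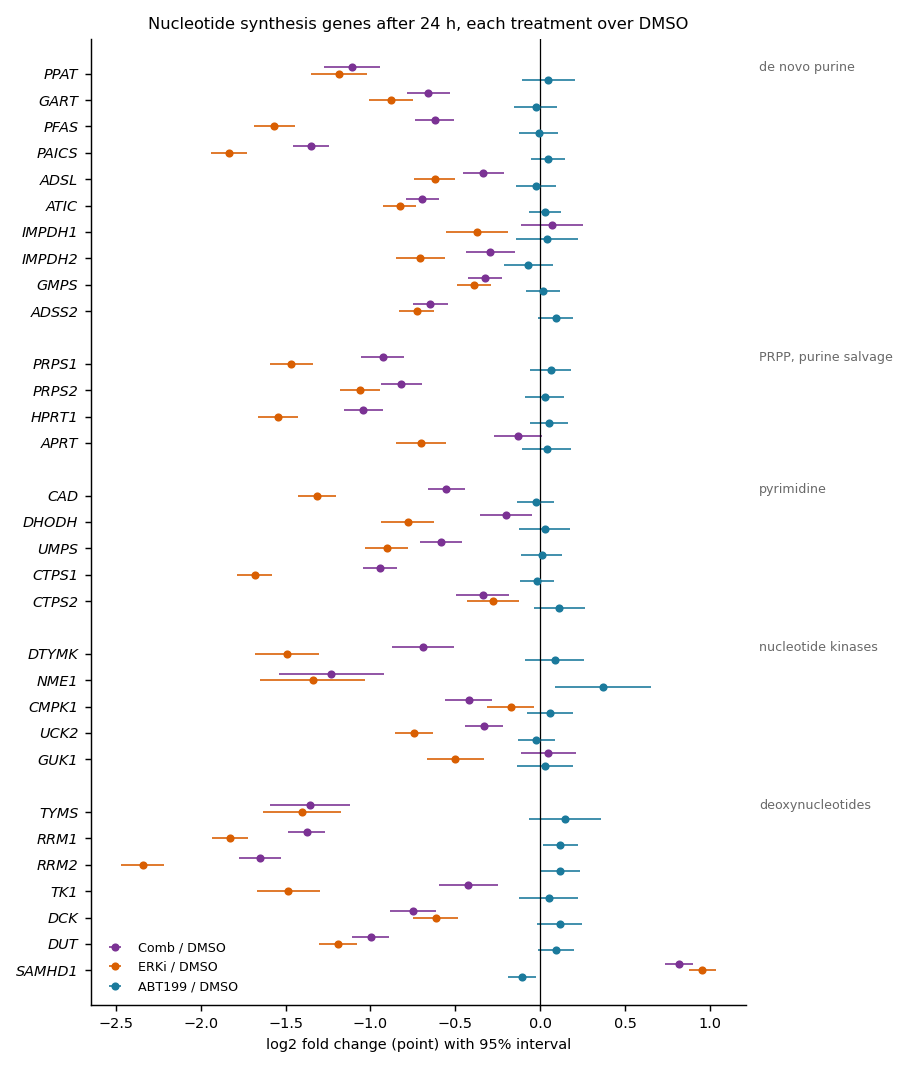
Log2 fold change over DMSO (x axis) of the 31 tested genes, grouped by branch, in Comb, ERKi and ABT199 libraries; points are edgeR estimates and lines their 95% intervals (n = 3 per group). ERKi points lie left of 0 for all genes but SAMHD1 (0.96), Comb points mostly lie between them and 0, and the ABT199 points lie between -0.11 and 0.37.

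The 10 enzymes from PRPP to AMP and GMP were all lower with ERKi, by 0.37 to 1.83 on the log2 scale. PAICS, a multifunctional enzyme of the middle of the pathway, fell most. It measured 127, 129 and 118 CPM in ERKi libraries and 440.0, 453 and 437 CPM in DMSO libraries. The groups lay far apart, at -1.83 on the log2 scale (SE 0.046, adjusted p = 6.43e-15), which left 28.1% of the DMSO level. PFAS, an amidotransferase of the same pathway, had 47.1, 46.3 and 44.8 CPM with ERKi against 146, 128 and 135 CPM with DMSO, a log2 fold change of -1.57 (SE 0.053). PPAT, the committed step, had 38.8, 39.7 and 38.1 CPM with ERKi against 76.5, 92.3 and 96.3 CPM with DMSO (-1.19, SE 0.071). DMSO replicate 1 was the lowest of the 3 DMSO values for PPAT, and still well above every ERKi library.

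The other purine enzymes fell less. GART and ATIC, multifunctional enzymes of the steps to IMP, were at -0.88 and -0.83, and ADSL, which acts both there and on the way to AMP, at -0.62. On the AMP arm ADSS2 was at -0.73. On the GMP arm IMPDH2, the rate-limiting IMP dehydrogenase of dividing cells, was at -0.71, GMPS, which aminates XMP, at -0.39, and IMPDH1, the other IMP dehydrogenase, at -0.37. IMPDH1 measured 108, 109.8 and 107 CPM with ERKi and 166, 128 and 127 CPM with DMSO, the highest DMSO value being that of replicate 1. All log2 fold changes here were called, with adjusted p of 0.00057 or lower. Per kilobase of exon, IMPDH2 was the most abundant of the 32 in both groups, at 123 CPM per kb with ERKi and 201 with DMSO. SAMHD1 came second with ERKi, at 80.9 CPM per kb, and RRM1 with DMSO, at 77.7.

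PRPP synthetases and purine salvage fell together with the de novo enzymes. PRPS1 was at -1.47 and its relative PRPS2 at -1.06. HPRT1, which salvages hypoxanthine and guanine, had 34.4, 34.3 and 34.7 CPM in ERKi libraries and 98.6, 102 and 101 CPM in DMSO libraries, a difference of -1.54 on the log2 scale (SE 0.051, adjusted p = 1.28e-13). APRT, which salvages adenine, was at -0.70. The HPRT1 value lay close to that of PFAS (-1.57).

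All 5 pyrimidine genes were lower with ERKi as well. CAD, the multifunctional enzyme of the first steps, had 86.7, 87.5 and 88.3 CPM with ERKi against 232, 213 and 209 CPM with DMSO, or -1.31 in log2 units (SE 0.048, adjusted p = 3.85e-13). DHODH, the step in the inner mitochondrial membrane, was at -0.78 and UMPS, which completes UMP, at -0.90. CTP synthase 1 (CTPS1) had 52.0, 53.0 and 51.3 CPM with ERKi against 174, 166 and 162 CPM with DMSO (-1.68, SE 0.045), while CTP synthase 2 (CTPS2) was at -0.28 (SE 0.067).

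Among the kinases, DTYMK, which makes dTDP, fell by 1.49 on the log2 scale, UCK2, the uridine and cytidine kinase, by 0.74, GUK1, the GMP kinase, by 0.50, and CMPK1, the UMP and CMP kinase, by 0.17. The CMPK1 groups overlapped, with 173, 182 and 172 CPM in ERKi and 175, 211 and 209 CPM in DMSO libraries, and its call was lost without DMSO replicate 2 (adjusted p = 0.0717), DMSO replicate 3 (0.0628) or ERKi replicate 3 (0.0595), with upper-quartile factors (0.589), with library totals (0.228) and with only the libraries compared (0.0602). NME1, a nucleoside diphosphate kinase, was at -1.34 (SE 0.134) from 71 to 82 counts with ERKi and 172 to 208 with DMSO. NME2 held 3 to 5 counts in ERKi and 8 to 15 in DMSO libraries and was not tested. Both are uncertain, since the readthrough gene NME1-NME2 covers 18.6% of NME1 and 22.9% of NME2 exons in GENCODE 29 and its own row was at 0 in all libraries. How reads shared by such genes were counted is not stated.

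Deoxynucleotide genes held the largest fall and the one rise. RRM2, the regulated small subunit of ribonucleotide reductase, had 58.1, 54.7 and 57.0 CPM in ERKi libraries and 265, 301 and 296 CPM in DMSO libraries. No library of one group came near the other, and the change was -2.34 on the log2 scale (SE 0.056, adjusted p = 3.52e-15), 19.7% of the DMSO level. RRM1, the large subunit, had 89.5, 96.1 and 89.0 CPM with ERKi against 313, 328 and 333 CPM with DMSO (-1.83, SE 0.047). The annotated gene AC007240.1 covers 20.2% of RRM2 exon bases on the same strand, and TLDC2 covers 10.3% of SAMHD1 on the other. AL022238.4 covers 18.9% of ADSL on the same strand and AC023355.1 covers 14.5% of DUT on the other. Reads there may be shared, so these 4 genes carry the same limit. TK1, the cytosolic thymidine kinase, was at -1.48, and DUT, which clears dUTP, at -1.19. TYMS, which makes dTMP, was at -1.40, but 39.1% of its exon bases overlap ENOSF1 on the other strand and the strand setting of the counting is not given. DCK, the kinase that activates cytarabine, was at -0.62, with 88.6, 87.6 and 81.8 CPM in ERKi and 122, 139 and 135 CPM in DMSO libraries.

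SAMHD1, which breaks deoxynucleotides down and so works against the others, had 903, 916 and 915 CPM in ERKi libraries and 457, 481 and 471 CPM in DMSO libraries. All ERKi libraries lay far above all DMSO libraries, 0.96 higher in log2 units (SE 0.035, adjusted p = 4.13e-13). In the same comparison all 37 genes of a G1/S list fell (median -1.68), as did all 34 of a G2/M list (median -1.38). Of 8 myeloid markers 7 rose and MPO fell, with a mean of 0.996 CPM in ERKi and 1.72 in DMSO libraries. Of all genes 35.2% were lower and 34.5% higher. How far the changes of these lists account for the nucleotide genes was not tested.

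**Figure D2:**
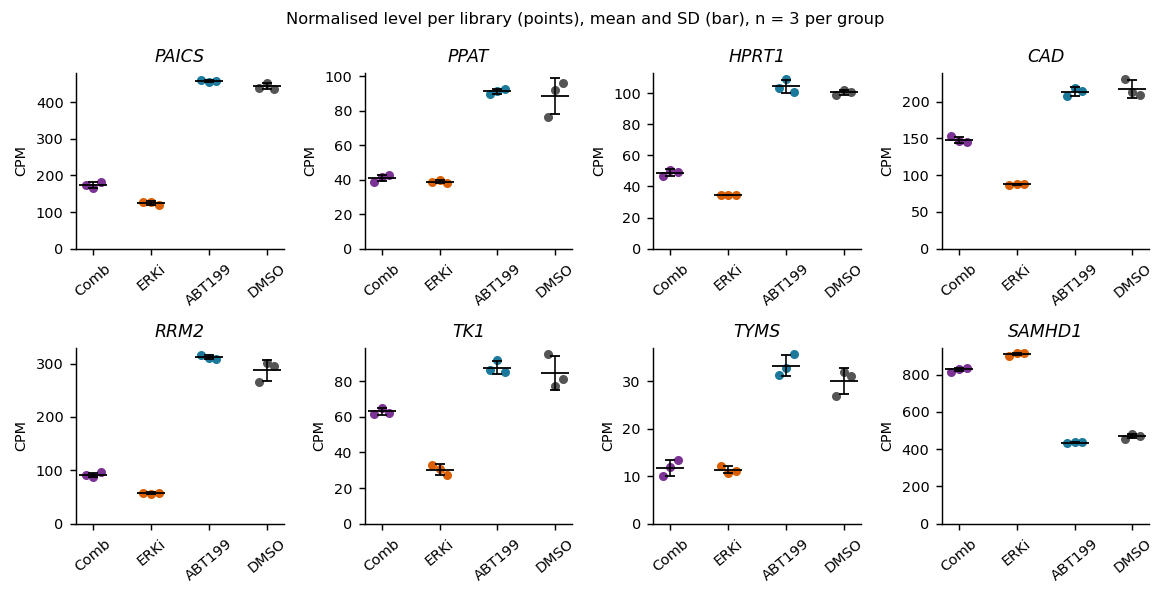
Normalised level (y axis, CPM, from 0) of 8 genes in each of the 12 libraries, with mean and SD (n = 3 per group). RRM2 lies at 87.5 to 95.9 CPM in Comb and 54.7 to 58.1 in ERKi, against 308 to 316 in ABT199 and 265 to 301 in DMSO libraries, and SAMHD1 shows the opposite order.

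ABT199 against DMSO asked what venetoclax alone does, and none of the 31 genes was called by edgeR, DESeq2 or limma-voom, where 0.402% of all genes were called, 0.0198% higher and 0.382% lower. Their log2 fold changes ran from -0.11 to 0.37 with a median of 0.04. At an unadjusted p under 0.05 there were 4 of 31: NME1 (0.37), RRM1 (0.12) and RRM2 (0.12) were higher and SAMHD1 (-0.11) lower. That is 12.9% of the 31, where 1382 of all genes tested (9.11%) passed the same threshold. SAMHD1 had 431, 438 and 439 CPM in ABT199 against 457, 481 and 471 CPM in DMSO libraries, which did not overlap, and it was called without DMSO replicate 1 (-0.13, adjusted p = 0.0231). The 95% interval was -0.12 to 0.11 for PFAS, -0.12 to 0.08 for CTPS1 and -0.06 to 0.16 for HPRT1, so changes of the size seen with ERKi lay outside it.

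With both drugs against DMSO, most genes were lower again. Of 31 genes, 27 were lower and 1 higher, where 63.8% of all genes were called, 33.4% lower and 30.4% higher. The median of the 31 was -0.65, where that of all genes was -0.008. By branch 9 of 10 de novo purine genes (median -0.63), 3 of 4 of PRPP supply and salvage (-0.87), 5 of 5 of pyrimidine synthesis (-0.55), 4 of 5 tested kinases (-0.42) and 6 of 7 deoxynucleotide genes were lower. Those with no call were IMPDH1 (0.07), GUK1 (0.05) and APRT (-0.13, adjusted p = 0.0784). Without DMSO replicate 1, IMPDH1 (0.20, adjusted p = 0.00057) and GUK1 (0.15, 0.00775) were called higher, which took the count of genes higher to 3. RRM2 was at -1.65, RRM1 at -1.38, TYMS at -1.36, PAICS at -1.35 and NME1 at -1.23, the deepest falls, and SAMHD1 was at 0.82. The overlap limits given above for TYMS and NME1 hold here too.

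The combination against ABT199 asked what ERKi does when venetoclax is present, and shares no library with the comparison of ERKi with DMSO. Of 31 genes 28 were lower and 1, SAMHD1 (0.93), higher, where 66.2% of all genes were called, 34.2% lower and 32.1% higher. The median of the 31 was -0.63, where that of all genes was -0.003. RRM2 had 90.7, 87.5 and 95.9 CPM in Comb libraries and 316, 311 and 308 CPM in ABT199 libraries, or -1.77 on the log2 scale (SE 0.054, adjusted p = 9.52e-14). NME1 (-1.60), TYMS (-1.50), RRM1 (-1.49) and PAICS (-1.40) followed, and IMPDH1 (0.03) and GUK1 (0.02) were not called. NME1 and TYMS keep the overlap limits given above. Across the 31 genes the ERKi effects without and with venetoclax correlated with r = 0.835 (Pearson) and rho = 0.751 (Spearman), a description across genes, which are not independent replicates. Of the 30 genes lower with ERKi alone, 24 had a higher log2 fold change when venetoclax was present. IMPDH1 and GUK1, which did not fall there, are among them. The count compares point estimates without a threshold, and the same share of all genes was not computed.

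**Figure D3:**
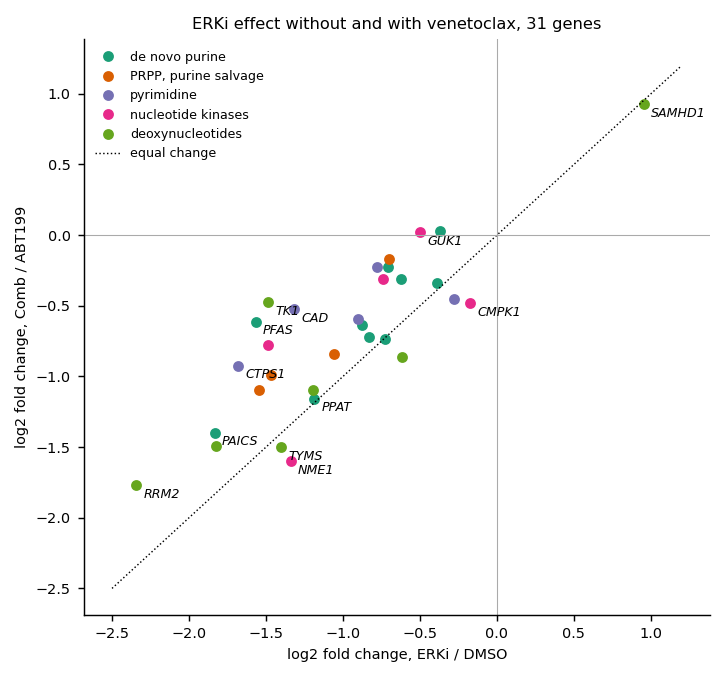
Log2 fold change of ERKi over DMSO (x axis) and of Comb over ABT199 (y axis) for 31 genes coloured by branch; the dotted line marks equal change. Most points lie above the line, such as TK1 (-1.48 and -0.47) and PFAS (-1.57 and -0.61), while TYMS (-1.40 and -1.50), PPAT (-1.19 and -1.16) and SAMHD1 (0.96 and 0.93) lie near it.

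Comb against ERKi libraries compare both drugs with ERKi alone, and most of the genes were higher with both. Doses are not given, so a different ERKi dose in Comb cannot be told apart from an effect of venetoclax. Of 31 genes, 22 were higher and 2 lower, where 50.9% of all genes were called, 26.5% higher and 24.3% lower, with a median of 0.41 where that of all genes was 0.00. With library totals in place of TMM factors, which moved the median of all genes to -0.13, the counts were 18 and 4, and of all genes 2763 were higher and 5181 lower in place of 4023 and 3694.

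By branch, Comb libraries were higher than ERKi libraries for 7 of 10 de novo purine genes (median 0.25), 4 of 4 of PRPP supply and salvage (0.52), 4 of 5 of pyrimidine synthesis (0.58), 3 of 5 tested kinases (0.41) and 4 of 7 deoxynucleotide genes (0.19). The genes lower in Comb were 1 kinase and 1 deoxynucleotide gene.

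TK1 differed most. It had 61.8, 65.2 and 62.4 CPM in Comb libraries and 33.1, 30.7 and 27.1 CPM in ERKi libraries, 1.06 higher on the log2 scale (SE 0.081, adjusted p = 2.9e-08), with no overlap. PFAS had 88.4, 89.5 and 88.0 CPM in Comb against 47.1, 46.3 and 44.8 CPM in ERKi libraries (0.94, SE 0.053). DTYMK (0.80), CAD (0.76), CTPS1 (0.74) and RRM2 (0.69) came next. CAD had 153, 146 and 146 CPM in Comb and 86.7, 87.5 and 88.3 CPM in ERKi libraries. These genes stood nearer to DMSO with both drugs than with ERKi: CAD stood at 68.1% of the DMSO level with both drugs and 40.2% with ERKi, and TK1 at 74.6% and 35.8%. DHODH (0.58), APRT (0.57), GUK1 (0.55), PRPS1 (0.54) and HPRT1 (0.50) were higher too.

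A smaller set did not share in this. TYMS had 9.97, 11.97 and 13.4 CPM in Comb and 12.2, 10.8 and 11.1 CPM in ERKi libraries, which overlapped (0.05, 95% interval -0.20 to 0.30). PPAT was at 0.08 (-0.09 to 0.25), ADSS2 at 0.08 (-0.02 to 0.19), GMPS at 0.07 (-0.04 to 0.17), NME1 at 0.11 (-0.22 to 0.44) and CTPS2 at -0.06 (-0.22 to 0.09), none of them called. CMPK1 was lower in Comb, with 143, 149.7 and 151 CPM against 173, 182 and 172 CPM in ERKi libraries (-0.25, SE 0.061, adjusted p = 0.00278), and so was SAMHD1 (-0.14, SE 0.035), which lost its call without a filter on low counts (adjusted p = 0.181). DCK was at -0.14 and missed the threshold (adjusted p = 0.0665), though it was called with upper-quartile factors (0.0256), library totals (0.00161), a CPM filter (0.0388) or only the libraries compared (0.0147), and without DMSO replicate 1 (0.0162) or ERKi replicate 3 (0.0476). ATIC (0.13) was called, but not without ERKi replicate 1 (adjusted p = 0.059), Comb replicate 2 (0.0617) or Comb replicate 3 (0.0976), nor with library totals (0.859).

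**Figure D4:**
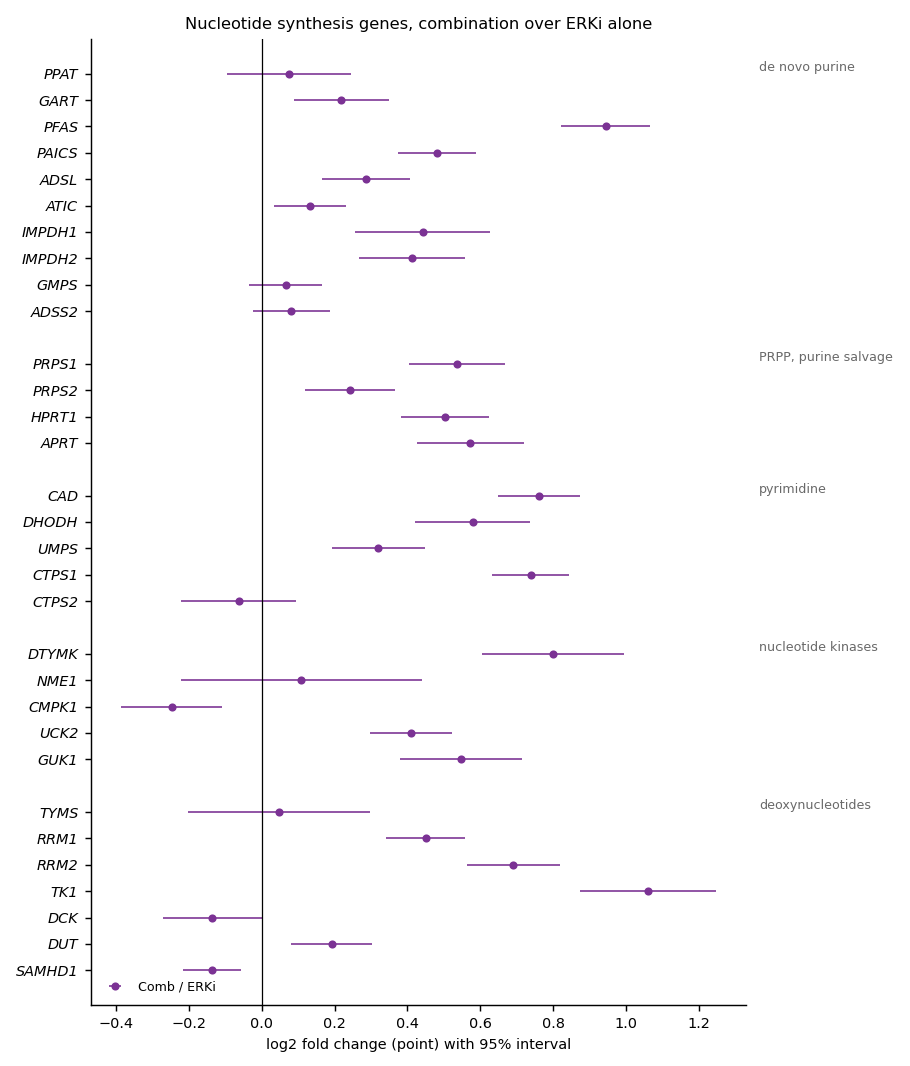
Log2 fold change of Comb over ERKi (x axis) for the 31 genes by branch; points are edgeR estimates and lines 95% intervals (n = 3 per group). TK1 (1.06) and PFAS (0.94) lie farthest right, PPAT, ADSS2, GMPS, CTPS2, NME1, TYMS and DCK have intervals that include 0, and CMPK1 (-0.25) lies farthest left. The intervals use fewer degrees of freedom than the test. That of DCK only just includes 0, beside an unadjusted edgeR p of 0.0354.

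The interaction asked whether the effect of venetoclax depended on ERKi. It takes the doses in Comb to be those of the single drugs, which is not stated. It lay above the sum of both single effects for 20 of 31 genes and below it for 2, where 39.2% of all genes were called, 21.3% above and 18% below. TK1 was at 1.01 (SE 0.110, adjusted p = 4.6e-06), PFAS at 0.95 (SE 0.073, adjusted p = 1.55e-07), CAD at 0.79 and CTPS1 at 0.76, while CMPK1 was at -0.31 and DCK at -0.25. The DCK call was lost without ABT199 replicate 1 (adjusted p = 0.0645), ERKi replicate 1 (0.0651) or 2 (0.0562), or Comb replicate 1 (0.0614), and without a filter on low counts (0.0543). With library totals the genes of the series split as 2334 above and 3765 below, in place of 3227 and 2724, and the members as 18 and 4. G2/M genes lay above the sum in 34 of 34 cases and G1/S genes in 29 of 37, and their part in the result for TK1, DTYMK and RRM2 was not tested.

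Related enzymes were compared by ratios of counts within each library, which do not depend on scaling. Ratios of 5 pairs were compared between 6 libraries with ERKi (Comb and ERKi) and 6 without (ABT199 and DMSO). The CTPS1 to CTPS2 ratio averaged 3.67 in Comb and 2.10 in ERKi, against 5.08 in ABT199 and 5.57 in DMSO libraries. All libraries with ERKi lay below all libraries without it (log2 difference -0.94). PRPS1 to PRPS2 was 1.52 in Comb, 1.24 in ERKi, 1.68 in ABT199 and 1.64 in DMSO libraries (log2 difference -0.27), though Comb replicate 2 lay within the DMSO range. IMPDH1 to IMPDH2 went the other way, at 0.325 in Comb, 0.318 in ERKi, 0.272 in ABT199 and 0.251 in DMSO libraries (log2 difference 0.30). RRM2 to RRM1, both subunits of ribonucleotide reductase, was 0.731 in Comb and 0.619 in ERKi, against 0.885 in ABT199 and 0.883 in DMSO libraries (log2 difference -0.39). Each of these 4 had p = 0.005 by a two-sided exact permutation test within the strata with and without venetoclax, the smallest that its 400 assignments allow, and 0.0062 after Benjamini-Hochberg adjustment over the 5 pairs. NME1 to NME2 did not pass (log2 difference -1.11, permutation p = 0.08, adjusted 0.08), with as little as 1 count of NME2 in a library.

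**Figure D5:**
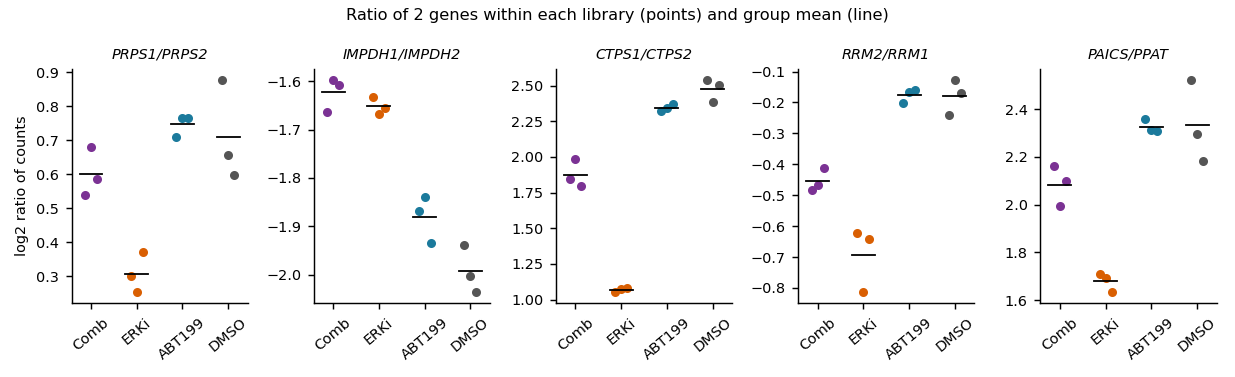
Log2 ratio of the counts of 2 genes within each library (y axis, points) with the group mean (line) for 5 pairs. CTPS1/CTPS2, PRPS1/PRPS2, RRM2/RRM1 and PAICS/PPAT are lowest in ERKi libraries, and IMPDH1/IMPDH2 is higher in all Comb and ERKi libraries than in all ABT199 and DMSO libraries.

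PAICS and PPAT, both with transcript starts in the sequence printed for PPAT, kept different proportions, a pair that was chosen after its values were seen. PAICS counts were 4.24 times those of PPAT in Comb and 3.20 times in ERKi libraries, against 5.02 in ABT199 and 5.04 in DMSO libraries. On the log2 scale the ratio was 2.16, 1.99 and 2.10 in Comb libraries and 1.71, 1.69 and 1.63 in ERKi libraries, which did not overlap, a difference of 0.41 (exact permutation p = 0.1, the smallest that 3 against 3 libraries allow). Between ERKi and DMSO libraries the difference was -0.66 (exact permutation p = 0.1). In both comparisons PAICS counts were lower relative to PPAT in the ERKi libraries, with no overlap between groups.

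The wider network was read from 3 further lists of genes. Folate enzymes, which supply carbon units for purines and dTMP, fell in 10 of 12 tested cases with ERKi and rose in 2, with a median of -1.34, where 35.2% of all genes were lower and 34.5% higher. ALDH1L2, a mitochondrial formyltetrahydrofolate dehydrogenase, was at -2.89, MTHFD1L at -2.52, the folate carrier SLC19A1 at -1.78 and SHMT2 at -1.70. In Comb against ERKi libraries 9 of 12 were higher and 2 lower, where 26.5% of all genes were higher and 24.3% lower. SLC19A1 averaged 32.9 ± 0.97 CPM in Comb and 16.1 ± 0.67 CPM in ERKi libraries (SD, n = 3 each).

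Of 22 other genes of synthesis and salvage 12 fell and 5 rose with ERKi, with DCTPP1 (-1.46), which clears modified dCTP, NME4 (-1.43), a mitochondrial nucleoside diphosphate kinase, AK1 (-1.40), an adenylate kinase, and DCTD (-0.75), the dCMP deaminase, as the largest changes. In the same list RRM2B, a relative of RRM2, went the other way, with 149 ± 3.44 CPM in ERKi and 103 ± 13.9 CPM in DMSO libraries. So did TK2, with 44.3 ± 0.63 CPM in ERKi and 28.7 ± 1.42 CPM in DMSO libraries (SD, n = 3 each). Of 21 genes of breakdown and transport 10 fell and 7 rose. Other synthesis and salvage thus had 54.5% lower and 22.7% higher, and breakdown and transport 47.6% lower and 33.3% higher, beside 35.2% and 34.5% of all genes. TYMP, the thymidine phosphorylase, rose by 2.05 (SE 0.093, adjusted p = 4.7e-12), with 157 ± 6.11 CPM in ERKi and 37.8 ± 7.44 CPM in DMSO libraries (SD, n = 3 each). NT5E (CD73, -1.44), the purine nucleoside phosphorylase PNP (-1.42) and the nucleoside carrier SLC29A1 (-1.06) fell. MYC and E2F1, factors known to drive many nucleotide synthesis genes, were at -0.92 and -1.87 with ERKi, and in Comb against ERKi libraries at 0.57 and 0.68. Their part in the changes of the nucleotide genes was not tested.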

How the data were processed

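Poly(A) RNA of 12 OCI-AML3 libraries was sequenced as paired ends, per the labels. The deposited values are raw read counts per gene symbol. The tools named, per the submitters' processing notes, are HISAT2, HTSeq and DESeq2, on build hg38; versions, annotation and strand setting: not given in the sources used here. The count model was edgeR 4.0.16 (R 4.3.3): filterByExpr (minimum count 10, total 15) left 15173 genes, TMM factors scaled the libraries, and 1 quasi-likelihood model of the 4 groups (8 residual degrees of freedom, prior count 0.125) gave 6 contrasts, adjusted by Benjamini-Hochberg over all genes and called at an adjusted p under 0.05. The standard error is the fold change over the square root of F. TMM takes most genes as unchanged, yet 69.7% were called for ERKi against DMSO, 66.2% for Comb against ABT199 and 63.8% for Comb against DMSO. Changes are relative to that scaling. CPM use the scaled totals, and CPM per kb the merged GENCODE 29 exons. Ratios added 0.5 to each count. The 5 pairs were tested by an exact permutation routine written for these data, and PAICS to PPAT with scipy 1.17.1. Figures used matplotlib 3.10.9. The pipeline was tested on simulated counts. Counting error is largest for NME1 and NME2, the genes with the fewest counts. All 32 genes are named, and up to 4 called genes of each other list by size of change with a mean CPM of at least 5. Members, lists and pairs were chosen with earlier results of these data known. Alternatives were RLE, upper-quartile and total-count scaling, DESeq2 1.42.0, limma-voom (limma 3.58.1), other filters, fits of the compared libraries alone, a replicate block and leaving out each library.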

Additional observations from a re-analysis of the deposited data

Results flagged for a closer look

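By the interaction test of edgeR (adjusted p under 0.05), 22 of the 31 genes were called. The effect of venetoclax thus differed between libraries with and without ERKi, if the doses in Comb were those of the single drugs. Of all genes tested 39.2% were called by the same test, 21.3% above 0 and 18% below. The values are log2 effects with ERKi minus those without. They were 1.01 for TK1, 0.95 for PFAS, 0.79 for CAD, 0.76 for CTPS1, 0.71 for DTYMK and 0.57 for RRM2. DHODH was at 0.55, APRT at 0.54, GUK1 at 0.52, IMPDH2 and PRPS1 at 0.48 each, and HPRT1 at 0.45. PAICS and UCK2 were at 0.43 each, IMPDH1 at 0.40, RRM1 at 0.33, UMPS and ADSL at 0.31 each, GART at 0.24 and PRPS2 at 0.22. Below 0 were DCK at -0.25 and CMPK1 at -0.31. All but PRPS2 (adjusted p = 0.0275), DCK (0.0232) and GART (0.021) had an adjusted p under 0.01 (the highest 0.0098, for IMPDH1).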

How the results depend on the processing

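No called fold change of a member reversed under any alternative run. The 18 counts of members called stayed within 1.5 times under RLE factors, upper-quartile factors, DESeq2, limma-voom, and the CPM filter, as did the 15 computed with only the libraries compared. With library totals 4 members in place of 2 were lower in Comb than in ERKi, and 4 in place of 2 lay below the sum in the interaction. Without a filter on low counts both were 1. Leaving out each library in turn gave 0 to 1 members called for ABT199 against DMSO (0 to 1 lower, SAMHD1 without DMSO replicate 1), 1 to 3 higher for Comb against DMSO and 1 to 2 below the sum. The cause was not tested. Upper-quartile factors moved the median of all genes for ERKi against DMSO to 0.15, with 28 members lower in place of 30. Interaction calls of PRPS2 and GART were lost on leaving out some libraries, with adjusted p up to 0.0922 for PRPS2 (without Comb replicate 3) and 0.0794 for GART (without Comb replicate 3). Both were also lost with library totals (0.258 for PRPS2 and 0.185 for GART). The PRPS2 call was lost by DESeq2 (0.0503) and without a filter on low counts (0.0529) as well. For ABT199 against DMSO all genes were called as 3 higher and 58 lower, 74 and 168 without a filter, 1 and 32 with only the libraries compared, 11 and 74 by DESeq2, and 17 and 81 without DMSO replicate 1. Without ABT199 replicate 1 or 3, 32 or 30 were lower. The replicate numbers are shared by the groups, but same-numbered libraries did not deviate together: the correlation of their deviations ran from -0.07 to 0.09 over 18 pairs. With the replicate number as a block the members called were the same in number in every comparison (30 lower with ERKi, 22 higher in Comb than ERKi), and no call of a member changed; of all genes for ABT199 against DMSO 1 was higher and 47 lower. The pair ratios kept their side of the threshold under every alternative run, from -0.97 to -0.92 for CTPS1 to CTPS2 over libraries left out.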
